A study of Homo sapiens with 6 samples.

Results

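The genes of the constitutive proteasome were examined in the human breast cancer line MDA-MB-453 after knockdown of tRF-1-Ser, a small RNA cut from the precursor of a serine transfer RNA. The members were the genes whose symbol begins with PSMA, PSMB, PSMC, PSMD, PSMF or PSMG followed by a number, without the immunoproteasome genes PSMB8, PSMB9 and PSMB10. This rule found 40 of the 36517 genes in the count table and used no measured value. They comprised 14 genes of the core particle (PSMA1 to PSMA7 and PSMB1 to PSMB7), 17 genes of the regulatory particle (PSMC1 to PSMC6, PSMD1 to PSMD4, PSMD6 to PSMD8 and PSMD11 to PSMD14), 8 genes of assembly factors and an inhibitor (PSMD5, PSMD9, PSMD10, PSMG1 to PSMG4 and PSMF1) and PSMA8, a core subunit of the testis. The mRNA of 6 libraries was sequenced on day 3, 3 from cells given a lentivirus with the control hairpin shNC (control) and 3 from cells given a lentivirus with the hairpin shtRF-1-Ser (shtRF). Both groups were thus the same cell line and both carried a lentiviral hairpin. The small RNA is not measured by mRNA libraries, so the group names rest on the labels, and each group may be a single transduced population, since the sources do not say whether replicates were separate transductions. The p-values below then measure the spread between these libraries, which may be technical.

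Totals ran from 63541413 to 78917459 counts per library, and the members took 0.465% to 0.487% of them. The luminal and apocrine markers expected of this line were present in every library, among them EPCAM (477 to 566 CPM, counts per 1000000 with TMM-scaled library sizes) and ERBB2 (345 to 426 CPM). Markers of leukocytes, endothelium and basal cells (PTPRC, PECAM1 and KRT5) did not exceed 0.318 CPM in any library, whereas COL1A1, a fibroblast marker, lay at 29.4 to 35.2 CPM in control and 20.5 to 21.2 CPM in shtRF, and its part in the results was not tested. KRT8 was at 1531 to 1577 CPM in control and 2510 to 2850 CPM in shtRF, so that the groups did not overlap in this epithelial keratin. KRT18 and EPCAM were also higher in shtRF without overlap. ERBB2 (385 to 426 CPM in control, 345 to 378 in shtRF) and GATA3 (248 to 270 and 234 to 240 CPM) were lower without overlap. The groups overlapped in KRT19 and FOXA1. Of all genes tested below, 48.7% had groups that did not overlap.

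The proteasome degrades proteins that carry a chain of ubiquitin. Its core particle is a barrel of stacked rings: the outer alpha rings, built from PSMA proteins, form the gate, and the inner beta rings, built from PSMB proteins, hold the active sites. The regulatory particle sits on the gate. Its base contains a ring of ATPases (PSMC proteins) that unfold the substrate and thread it into the barrel, and its lid removes the ubiquitin chain. Subunits are needed in fixed proportions, and dedicated chaperones put them together. The transcription factor NFE2L1 is known for raising the transcription of proteasome genes through antioxidant response elements when proteasome activity is short, and CCAAT boxes are common in the promoters of housekeeping genes.

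The promoters of 4 members are printed because these genes stand for both rings of the core, for the ATPases and for the base, and because each had an adjusted p under 0.05. Each is the sense strand 5′ to 3′ from 250 bases before to 50 bases after the start of transcription, taken from RefSeq on GRCh38.p14. Capitals mark the letters CCAAT or TGACNNNGC (the core of the antioxidant response element) found on either strand. PSMA2 is read from the minus strand of chr7:42932125-42932424, PSMB3 from the plus strand of chr17:38752491-38752790, PSMC2 from the plus strand of chr7:103347393-103347692 and PSMD1 from the plus strand of chr2:231056617-231056916.
PSMA2: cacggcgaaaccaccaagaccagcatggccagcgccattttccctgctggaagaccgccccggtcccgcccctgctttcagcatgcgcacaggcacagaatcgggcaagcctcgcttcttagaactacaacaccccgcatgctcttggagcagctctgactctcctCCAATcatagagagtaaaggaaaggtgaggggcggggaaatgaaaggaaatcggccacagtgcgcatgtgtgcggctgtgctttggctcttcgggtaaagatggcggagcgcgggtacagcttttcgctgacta
PSMB3: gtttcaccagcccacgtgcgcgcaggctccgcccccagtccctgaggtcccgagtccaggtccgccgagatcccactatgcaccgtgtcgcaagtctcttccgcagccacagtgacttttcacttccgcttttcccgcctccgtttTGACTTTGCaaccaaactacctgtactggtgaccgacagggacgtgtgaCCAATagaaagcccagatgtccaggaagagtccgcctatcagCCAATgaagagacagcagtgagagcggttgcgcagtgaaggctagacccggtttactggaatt
PSMC2: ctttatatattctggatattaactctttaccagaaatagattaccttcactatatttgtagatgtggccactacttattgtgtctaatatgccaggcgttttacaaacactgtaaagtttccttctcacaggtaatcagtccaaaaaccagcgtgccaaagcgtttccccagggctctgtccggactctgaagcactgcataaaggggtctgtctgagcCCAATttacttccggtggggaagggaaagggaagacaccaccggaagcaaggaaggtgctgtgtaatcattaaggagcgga
PSMD1: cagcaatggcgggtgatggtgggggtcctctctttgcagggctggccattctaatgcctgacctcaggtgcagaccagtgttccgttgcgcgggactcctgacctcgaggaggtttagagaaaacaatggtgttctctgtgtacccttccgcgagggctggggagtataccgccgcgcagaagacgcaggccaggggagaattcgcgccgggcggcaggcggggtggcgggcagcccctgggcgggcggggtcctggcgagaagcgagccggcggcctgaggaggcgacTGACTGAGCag

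In these windows the CCAAT letters lay 84 bases before the start in PSMA2, 55 and 13 bases before it in PSMB3 and 31 bases before it in PSMC2. The TGACNNNGC letters lay 104 bases before the start in PSMB3 and 39 bases after it in PSMD1. Promoters of 34 of the 40 members could be matched by symbol. CCAAT, searched on both strands, was in 17 of the 34 and in 39.7% of the 27305 genes with a promoter, and TGACNNNGC was in 11 of the 34 and in 16.1% of those genes (matches counted separately, also where they overlapped). By particle, CCAAT was in 7 of 10 matched core genes and in 8 of 16 matched regulatory genes, and TGACNNNGC was in 2 of 10 and 5 of 16. Of matched members with an adjusted p under 0.05, CCAAT was in 6 of 7 lower and 3 of 5 higher ones. TGACNNNGC was in 1 of 7 and 2 of 5. Each of the 4 printed promoters holds a match, whereas those of PSMA6 and PSMC1, for example, hold none. A match of letters is a description and not a binding site.

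The level of the members varied widely within each particle (the plot of RPKM by gene). RPKM, counts scaled to the length of the exons and to the library total, allows genes to be compared. In control, core genes had a median of 14.6 RPKM and ran from 1.58 ± 0.143 RPKM for PSMB2 to 103 ± 9.59 RPKM for PSMA7 (SD, n = 3), a range of 65.4-fold. Regulatory genes had a median of 38.0 RPKM and ran from 6.77 ± 0.544 RPKM for PSMD11 to 141 ± 3.47 RPKM for PSMC5, a range of 20.8-fold. The assembly factors and the inhibitor were low throughout, from 1.13 RPKM for PSMG4 to 12.1 RPKM for PSMD10. The length in the table is that of all annotated exons, which can exceed the length of the expressed transcript. Divided by the length of the principal transcript instead, control CPM per kilobase still spanned 68.5-fold in the core (PSMB2 to PSMA6) and 27.2-fold in the regulatory particle (PSMD11 to PSMC5). Both core ranges rest on PSMB2 as the lowest gene. The regulatory range by principal transcript rests on PSMC5 as the highest gene, at 393 CPM per kilobase against 183 for PSMD2. Of their exonic bases, PSMC5 shares 19.5% with FTSJ3 and PSMA6 shares 14.1% with RP11-561B11.2, so their levels may include reads of these genes. PSMA1, PSMB2, PSMB4 and PSMB6 were low in both groups, and how reads that match several places were counted is not given in the sources used here, so levels are compared between genes only as the table lists them. PSMA8 had 0, 2 and 2 counts in control and 0 in each shtRF library, where a count of 0 allows up to 3 counts, and was not tested.

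**Figure D1:**
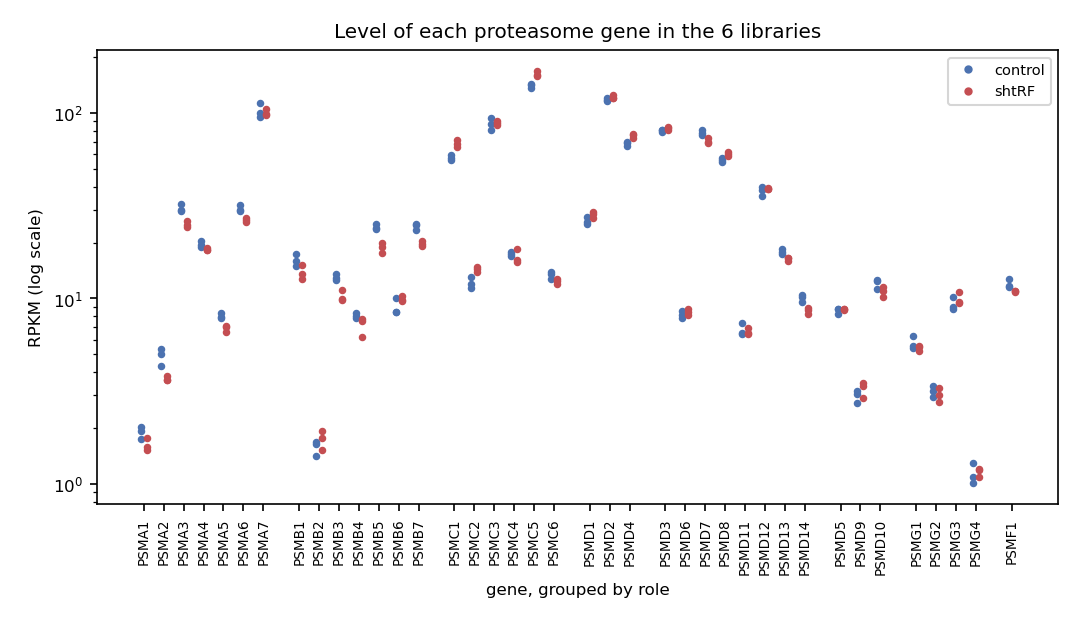
RPKM of each of the 39 tested members (log axis, genes grouped by role) with 1 point per library, control in blue and shtRF in red. Core genes span 1.58 (PSMB2) to 103 RPKM (PSMA7) in control, and the 2 groups lie close together at each gene compared with the differences between genes.

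To ask whether the knockdown moved the particles together, shtRF was compared with control by edgeR's quasi-likelihood test over all 19628 genes with sufficient counts. The core and the regulatory particle moved apart by small amounts (the plot of log2 fold changes by gene). In shtRF, 7 of 14 core genes fell and 0 rose, with a median log2 fold change of -0.17, while 6 of 17 regulatory genes rose and 1 fell, with a median of 0.09. The regulatory median was 0.058 under upper quartile scaling and 0.058 without control replicate 1. Of the 8 assembly factors and inhibitor, 0 passed the test. At an unadjusted p under 0.05, 1 core gene (PSMB6) and 1 assembly factor (PSMD9) were higher, and DESeq2 also called 0 higher core genes and 0 assembly factors. Over all 39 tested members, 6 were higher and 8 lower at an adjusted p under 0.05, 35.9% in all, against 39.5% of all genes tested, so members were not called more often than genes at large. Separately by direction, 20.6% of all genes were higher and 18.9% lower, and their median log2 fold change was -0.0025. The 2 groups did not overlap in CPM for 18 of 39 members, against 48.7% of all genes.

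**Figure D2:**
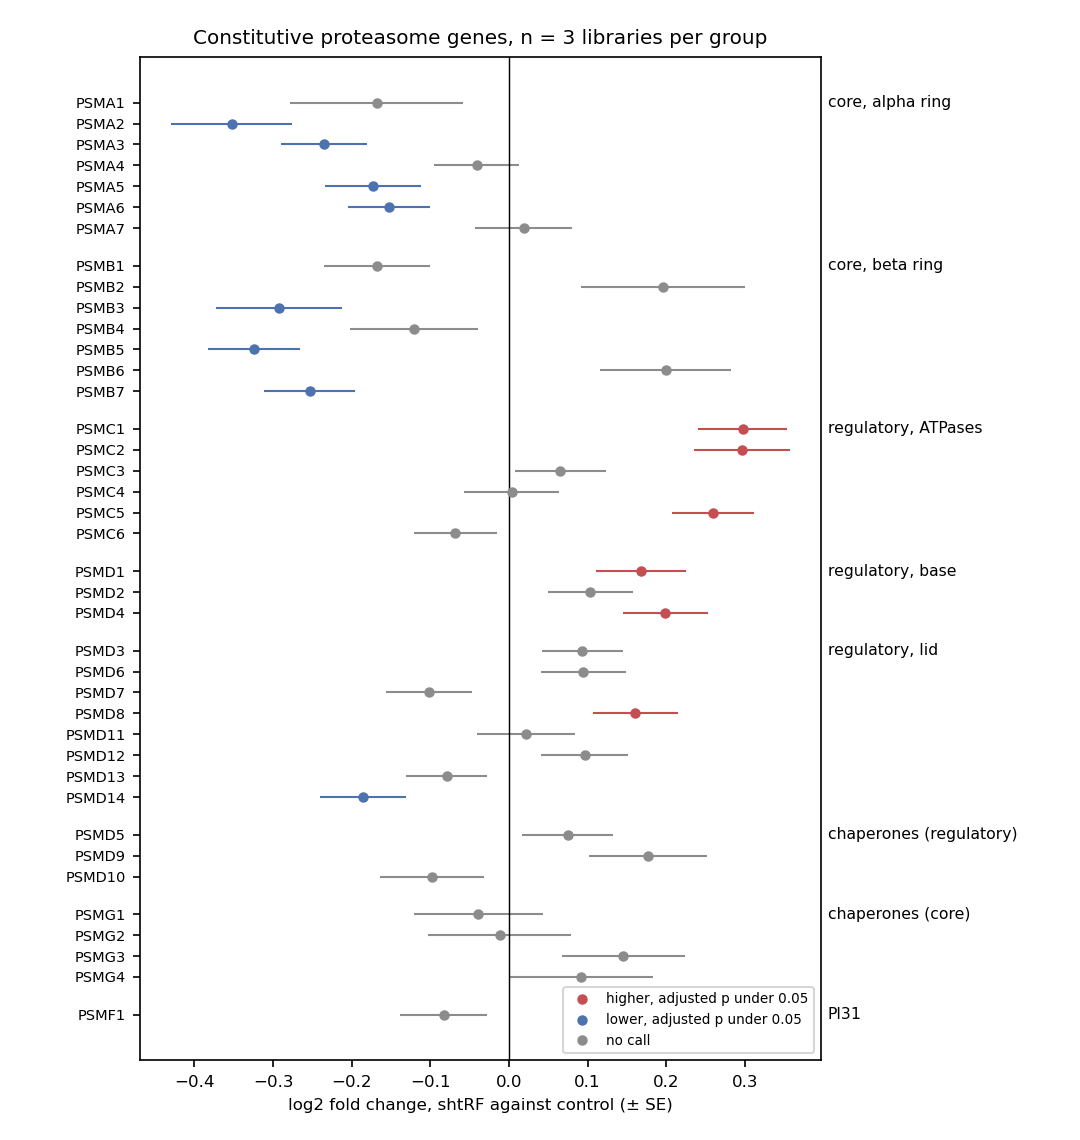
Log2 fold change of each tested member (x axis, shtRF against control, with its SE, n = 3 libraries per group), ordered by role and coloured by call. The 7 lower core genes lie between -0.35 and -0.15, and the 6 higher regulatory genes between 0.16 and 0.30.

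The share of lower calls in the core, 50%, stood beside 21.9% of genes at 5 to 20 CPM, 25.8% at 20 to 50 CPM and 26.7% at 50 to 200 CPM. It was 23.2% for protein-coding genes with a principal transcript of up to 1000 bases, a class that also holds many core genes. The share of higher calls in the regulatory particle, 35.3%, stood beside 30.4% of all genes at 20 to 50 CPM, 35.4% at 50 to 200 CPM and 39.6% above 200 CPM. By length of the principal transcript, 20.2% of protein-coding genes of 1000 to 2000 bases, 24.2% of those of 2000 to 4000 bases and 27.3% of longer ones were higher. The regulatory share was thus near that of genes of similar level and above that of genes of similar length. The median log2 fold change also rose with level. It was -0.0025 for genes at 5 to 20 CPM, 0.023 at 20 to 50 CPM, 0.039 at 50 to 200 CPM and 0.082 above 200 CPM. The regulatory median, 0.09, was thus near that of genes above 200 CPM and above those of the lower classes. Regulatory genes spanned several of these classes, from 40.8 CPM (PSMC4) to 631 CPM (PSMD2) in control. The core median, -0.17, lay below that of each class. The members are genes of the same 6 libraries and are not independent replicates, so no test of either list is given.

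Of the alpha ring, which forms the gate, 4 of 7 genes fell (PSMA2, PSMA3, PSMA5 and PSMA6) and 0 rose, with a median log2 fold change of -0.17. PSMA2 (chromosome 7, 42916857 to 42932223) had 22.8, 27.8 and 26.5 CPM in control and 19.3, 21.2 and 19.9 CPM in shtRF. All 3 shtRF libraries lay below all 3 control libraries, and its log2 fold change, -0.35 ± 0.08 (SE; adjusted p = 0.000839), exceeded that of every other member in size. Other genes cover 34.6% of its exonic bases, the main one of them at 0.524 CPM in control. PSMA3 (chromosome 14, 58244831 to 58272012) had 90.4, 91.4 and 99.0 CPM in control and 80.9, 80.4 and 77.3 CPM in shtRF, a log2 fold change of -0.24 ± 0.05 (adjusted p = 0.00138). For PSMA3 the gap between groups was wider than the range within either group, whereas for PSMA2 it was narrower than the range of the control libraries.

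The remaining lower alpha genes were nearer the threshold. PSMA5 had 44.9, 44.0 and 47.5 CPM in control and 37.4, 41.9 and 41.7 CPM in shtRF (log2 fold change -0.17 ± 0.06, adjusted p = 0.0278). Its groups did not overlap, but its call was lost without control replicate 3 (adjusted p = 0.0976) or shtRF replicate 1 (0.144). PSMA6 had 192.7, 203.6 and 190.3 CPM in control and 175.4, 179.5 and 172.9 CPM in shtRF (log2 fold change -0.15 ± 0.05, adjusted p = 0.0233). Its groups did not overlap either, and its call was lost without control replicate 2 (adjusted p = 0.0895) or shtRF replicate 3 (0.111). Of the exonic bases of PSMA6, 14.1% lie in a gene on the same strand, RP11-561B11.2, and reads there cannot be told apart. RP11-561B11.2 was at 225 CPM in control, against 196 CPM for PSMA6, and had a log2 fold change of -0.10 (adjusted p = 0.138). PSMA7, the most abundant core gene in RPKM, had 171.1, 163.1 and 196.8 CPM in control and 182.8, 180.1 and 175.2 CPM in shtRF. These values overlapped fully (log2 fold change 0.02 ± 0.06, adjusted p = 0.845), and its sign turned under upper quartile scaling (-0.018). PSMA4 (-0.04 ± 0.05, adjusted p = 0.59) and PSMA1 (-0.17 ± 0.11, adjusted p = 0.245) did not pass the test. PSMA1 was at only 6.16 ± 0.427 CPM in control, and its fold change had the widest SE of the core. Its exons share 24.7% of their bases with RP11-140L24.4 on the same strand, which was at 9.49 CPM in control.

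In the beta ring, 3 of 7 genes fell (PSMB3, PSMB5 and PSMB7) and 0 rose, with a median log2 fold change of -0.17. The 3 catalytic subunits did not move together. PSMB5, the chymotrypsin-like subunit and the main target of proteasome inhibitor drugs (chromosome 14, 23016543 to 23035230), had 41.3, 41.4 and 44.1 CPM in control and 34.8, 32.3 and 34.2 CPM in shtRF. With a log2 fold change of -0.32 ± 0.06, PSMB5 had the smallest adjusted p of the members (0.000131) and a gap between the groups wider than the range within either. PSMB7, the trypsin-like subunit (chromosome 9, 124353466 to 124415444), had 41.0, 43.2 and 44.6 CPM in control and 36.3, 36.7 and 35.1 CPM in shtRF, a log2 fold change of -0.25 ± 0.06 (adjusted p = 0.00128). PSMB6, the caspase-like subunit (chromosome 17, 4796144 to 4798503), had 12, 14.2 and 12.1 CPM in control and 14.9, 14.7 and 14.5 CPM in shtRF. All shtRF libraries of PSMB6 were above all control libraries, with a log2 fold change of 0.20 ± 0.08 that did not pass the test (adjusted p = 0.0638) except when control replicate 2 was left out (0.0197).

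The other beta subunits line the ring without an active site of their own. PSMB3 (chromosome 17, 38752736 to 38764231) had 14.6, 14.9 and 15.9 CPM in control and 13.1, 12.2 and 11.8 CPM in shtRF, and the groups did not overlap (log2 fold change -0.29 ± 0.08, adjusted p = 0.00567). PSMB1 (-0.17 ± 0.07, adjusted p = 0.0546) missed the threshold and passed it in 6 of 13 alternatives (adjusted p = 0.0203 to 0.273 over all 13). PSMB4 had 16.7, 17.6 and 17.1 CPM in control and 16.6, 13.9 and 16.7 CPM in shtRF, so that only shtRF replicate 2 stood apart and the log2 fold change was -0.12 ± 0.08 (adjusted p = 0.262). PSMB2, the lowest core gene in RPKM, had a log2 fold change of 0.20 ± 0.10 (adjusted p = 0.146).

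**Figure D3:**
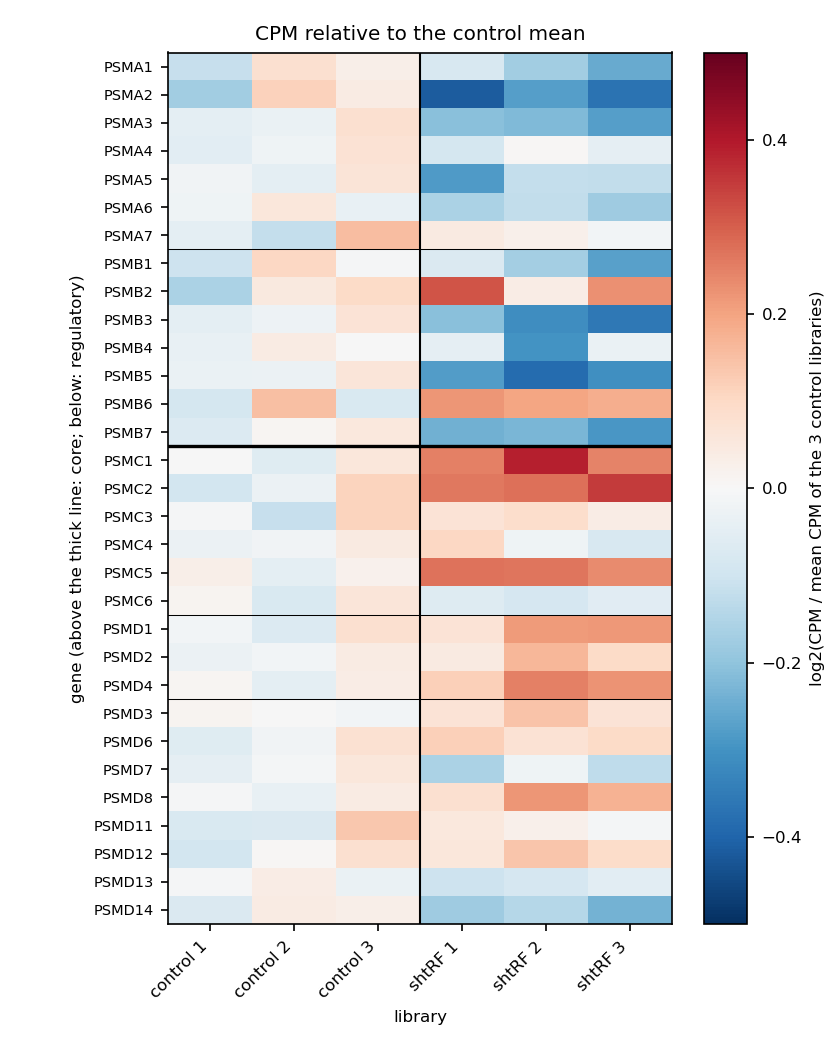
Each cell is log2 of a gene's CPM in 1 library over its mean CPM in the 3 control libraries, for the 14 core genes (above the thick line) and the 17 regulatory genes (below it). Blue shtRF columns in the core, for example at PSMA2 and PSMB5, stand above red ones at PSMC1, PSMC2 and PSMC5, while PSMB2 and PSMB6 in the core are red and PSMD14 in the regulatory particle is blue.

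Among the 6 ATPases, 3 rose (PSMC1, PSMC2 and PSMC5) and 0 fell, with a median log2 fold change of 0.16. PSMC2 (chromosome 7, 103344254 to 103369395) had 39.6, 41.3 and 45.5 CPM in control and 50.6, 51.1 and 53.7 CPM in shtRF, a log2 fold change of 0.30 ± 0.06 (adjusted p = 0.000451). For PSMC2 the lowest shtRF library exceeded the highest control library, and under 10% of the exonic bases of PSMC2 lie in other genes. PSMC1 (chromosome 14, 90256495 to 90275429) had 348, 334 and 362 CPM in control and 414, 456 and 412 CPM in shtRF (log2 fold change 0.30 ± 0.06, adjusted p = 0.000205). However, NRDE2 on the opposite strand covers 75.8% of its exonic bases and was at 79.3 CPM in control with a log2 fold change of -0.02 (adjusted p = 0.775). Pseudogenes of PSMC1 held 1.90% as many counts as PSMC1 itself, and those of the other members at most 0.352%. PSMC5, the highest member in RPKM (chromosome 17, 63827152 to 63832026), had 633, 599 and 629.7 CPM in control and 749.7, 748 and 732 CPM in shtRF (log2 fold change 0.26 ± 0.05, adjusted p = 0.000379). The groups were well separated, but 19.5% of its exonic bases lie in FTSJ3 on the opposite strand, which was at 1395 CPM in control and rose itself (log2 fold change 0.19, adjusted p = 0.0108). The part of these neighbours in PSMC1 and PSMC5 was not tested.

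The other ATPases did not pass the test. PSMC4 had 40.0, 40.4 and 42.2 CPM in control and 43.9, 40.3 and 38.6 CPM in shtRF, with a log2 fold change near 0 (0.0036 ± 0.06, adjusted p = 0.973) whose sign turned under several settings. PSMC3 (0.07 ± 0.06, adjusted p = 0.406) and PSMC6 (-0.07 ± 0.05, adjusted p = 0.341) overlapped between the groups as well. The ATPase ring is made of 1 copy of each of these 6 proteins, so genes whose products are used in equal numbers had log2 fold changes from -0.07 to 0.30.

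The other base subunits hold the ring and bind ubiquitin. PSMD4, a ubiquitin receptor (chromosome 1, 151254703 to 151267479), had 203.9, 196.2 and 208 CPM in control and 219.9, 241 and 237 CPM in shtRF. It rose by 0.20 ± 0.05 on the log2 scale (adjusted p = 0.00535), with no overlap between the groups. PSMD1, a scaffold (chromosome 2, 231056864 to 231172827), had 132, 127 and 141 CPM in control and 139.9, 154 and 155 CPM in shtRF (log2 fold change 0.17 ± 0.06, adjusted p = 0.0233). The groups of PSMD1 overlapped, since shtRF replicate 1 lay below control replicate 3, and 10.8% of its exonic bases lie in HTR2B on the opposite strand, at 0.121 CPM in control. PSMD2, the other scaffold, had 618, 625 and 649.9 CPM in control and 652, 707 and 675 CPM in shtRF, which did not overlap but did not pass the test (log2 fold change 0.10 ± 0.05, adjusted p = 0.137).

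In the lid, 1 of 8 genes rose (PSMD8), 1 fell (PSMD14) and 6 did not pass the test, with a median log2 fold change of 0.06. PSMD14, the deubiquitinase that cuts the ubiquitin chain off the substrate (chromosome 2, 161308038 to 161411717), had 72.6, 78.4 and 77.7 CPM in control and 67.5, 69.1 and 64.7 CPM in shtRF. It was the single regulatory gene that fell (log2 fold change -0.18 ± 0.05, adjusted p = 0.00966), and its call was lost without shtRF replicate 3 (adjusted p = 0.071). PSMD8 (chromosome 19, 38374536 to 38383824) had 169, 165 and 175 CPM in control and 179.5, 198 and 192 CPM in shtRF (log2 fold change 0.16 ± 0.05, adjusted p = 0.0215). The calls of PSMD1 and PSMD8 were the least firm of the 14: both were lost under upper quartile scaling (adjusted p = 0.0807 for PSMD1 and 0.0784 for PSMD8) and without control replicate 1, control replicate 2, shtRF replicate 2 or shtRF replicate 3 (0.0849 to 0.143 for PSMD1 and 0.0739 to 0.113 for PSMD8). PSMD11 had 45.4, 45.6 and 52.6 CPM in control and 49.6, 48.7 and 47.6 CPM in shtRF, with the shtRF values inside the control range (log2 fold change 0.02 ± 0.06, adjusted p = 0.817; -0.014 under upper quartile scaling). The remaining lid genes had log2 fold changes of 0.09 (PSMD3), 0.09 (PSMD6), 0.10 (PSMD12), -0.08 (PSMD13) and -0.10 (PSMD7, the partner of PSMD14), with adjusted p-values from 0.154 to 0.243. Of the exonic bases of PSMD7, 30.7% are shared with AC009120.6 on the opposite strand.

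The assembly factors and the inhibitor showed no call. The base chaperones had log2 fold changes of 0.07 for PSMD5, 0.18 for PSMD9 and -0.10 for PSMD10, with PSMD9 closest to the threshold (adjusted p = 0.0671). PSMD9 passed it without control replicate 3 (adjusted p = 0.0221) or shtRF replicate 2 (0.0319), and 22.6% of its exonic bases are shared with other genes. PSMD5 had 38.4, 38.1 and 36.2 CPM in control and 38.5, 40.1 and 40.1 CPM in shtRF, a narrow separation without overlap (adjusted p = 0.33). The chaperones of the alpha ring had log2 fold changes of -0.04 for PSMG1, -0.01 for PSMG2, 0.15 for PSMG3 and 0.09 for PSMG4, and those of PSMG1 and PSMG2 changed sign when single libraries were left out. PSMG3 passed the test without control replicate 3 (adjusted p = 0.0283). Other genes share 16.7% of the exonic bases of PSMG2 and 15% of those of PSMG4. PSMG2 had 11.2, 10.4 and 9.76 CPM in control and 10.9, 10.5 and 9.55 CPM in shtRF, which overlapped. PSMF1, which binds and inhibits the core particle, had 60.1, 65.9 and 61.4 CPM in control and 57.8, 60.6 and 58.5 CPM in shtRF (log2 fold change -0.08 ± 0.06, adjusted p = 0.258).

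Set side by side, the particles differed in their median log2 fold change by -0.26 (core minus regulatory). Within a library, the same difference of medians relative to the control mean was -0.039, 0.053 and 0.0022 in control. It was -0.19, -0.31 and -0.31 in shtRF. Core genes summed to 823, 847 and 886 CPM in control and 788, 793 and 774 CPM in shtRF. Regulatory genes summed to 3537, 3486 and 3675 CPM in control and 3831, 4031 and 3879 CPM in shtRF. The ratio of the core sum to the regulatory sum was 0.233, 0.243 and 0.241 in control and 0.206, 0.197 and 0.199 in shtRF, which did not overlap. A ratio within a library does not depend on its scaling, so this separation is the same under every normalisation, but it is weighted towards the abundant genes. In bulk libraries such as these, a lower level in every cell and fewer cells with the transcript cannot be told apart.

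**Figure D4:**
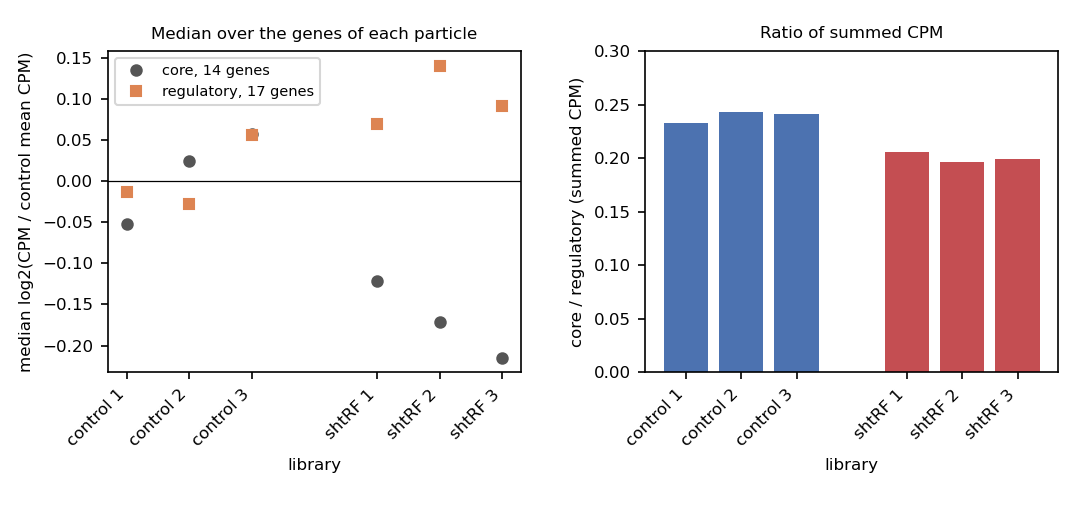
Left, the median over the genes of each particle of log2(CPM over the control mean CPM) in each library (circles, 14 core genes; squares, 17 regulatory genes). Right, the summed CPM of the core over that of the regulatory particle, 0.233 to 0.243 in the control libraries and 0.197 to 0.206 in the shtRF libraries.

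Per library, the median core gene lay at -0.05, 0.02 and 0.06 on the log2 scale relative to the control mean in control and at -0.12, -0.17 and -0.21 in shtRF. The median regulatory gene lay at -0.01, -0.03 and 0.06 in control and at 0.07, 0.14 and 0.09 in shtRF. In both particles the groups did not overlap, with shtRF lower in the core and higher in the regulatory particle. The regulatory groups were close, at 0.0694 in shtRF replicate 1 and 0.0554 in control replicate 3. Unlike the ratio of the sums, these medians depend on the scaling, and upper quartile scaling moved the median of all genes by -0.036. Because other genes cover 10% or more of the exonic bases of 10 of the 40 members, the comparison was repeated without them. The median log2 fold change was then -0.17 for 11 core genes and 0.09 for 13 regulatory genes, and the ratio of the sums was 0.271, 0.275 and 0.285 in control and 0.251, 0.238 and 0.241 in shtRF. With these members left out, the higher regulatory genes numbered 3 (PSMC2, PSMD4 and PSMD8) in place of 6, and the lower core genes 5 in place of 7. Under upper quartile scaling, 4 members were higher and 9 lower, so that 30.8% of the calls were higher against 42.9% with TMM.

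Other genes of the ubiquitin and proteasome pathway are given from lists written by hand. Of 37 listed genes, 36 were in the table, 3 of them under an older symbol, and all 36 were tested: 9 were higher and 5 lower, 38.9% in all, where 39.5% of all genes were called. Of the other subunits, ADRM1, a ubiquitin receptor of the base, had 54.1, 57.9 and 64.2 CPM in control and 69.2, 75.2 and 73.4 CPM in shtRF, a log2 fold change of 0.31 ± 0.06 (adjusted p = 0.000438). It moved in the direction of PSMD4, another ubiquitin receptor gene, and 17.2% of its exonic bases lie in other genes, chiefly LAMA5. SEM1, the small lid subunit (listed as SHFM1), had a log2 fold change of 0.05 ± 0.07 (adjusted p = 0.611). POMP, which the core particle needs to mature, had 62.8, 74.6 and 69.2 CPM in control and 82.5, 91.5 and 87.3 CPM in shtRF. It rose by 0.34 ± 0.06 on the log2 scale (adjusted p = 0.000154) while 7 genes of the core it matures fell. PAAF1, TXNL1, ECPAS and AKIRIN2, listed together with POMP, did not pass the test.

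The immunoproteasome subunits replace the catalytic beta subunits in cells exposed to interferon. PSMB8, which takes the place of PSMB5, had 25.0, 25.4 and 29 CPM in control and 12.9, 16.3 and 16.4 CPM in shtRF, a log2 fold change of -0.80 ± 0.09 (adjusted p = 1.74e-07). PSMB9, which takes the place of PSMB6, had 2.69, 2.67 and 2.44 CPM in control and 2.06, 1.81 and 1.50 CPM in shtRF (log2 fold change -0.54 ± 0.17, adjusted p = 0.0161; 0.0853 without shtRF replicate 3). PSMB10, which takes the place of PSMB7, was at 4.13 ± 0.108 CPM in control and 4.08 ± 0.701 CPM in shtRF (adjusted p = 0.953). However, 34.8% of the exonic bases of PSMB10 lie in CTC-479C5.12 on the same strand, at 3.38 CPM in control, and reads there cannot be told apart. The fall of PSMB8 was thus larger than that of any constitutive subunit, in log2 fold change. PSMB8-AS1 on the opposite strand covers 21.2% of the exonic bases of PSMB8. It was at only 2.16 CPM in control and fell itself (-0.68, adjusted p = 0.01), and its part was not tested. Of the activator caps, PSME1 had a log2 fold change of -0.06, PSME2 of -0.15 (adjusted p = 0.0491), PSME3 of 0.16 (adjusted p = 0.0645) and PSME4 of 0.15 (adjusted p = 0.0491). The calls of PSME2 and PSME4 were lost in 5 and 11 of 13 alternatives, respectively.

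**Figure D5:**
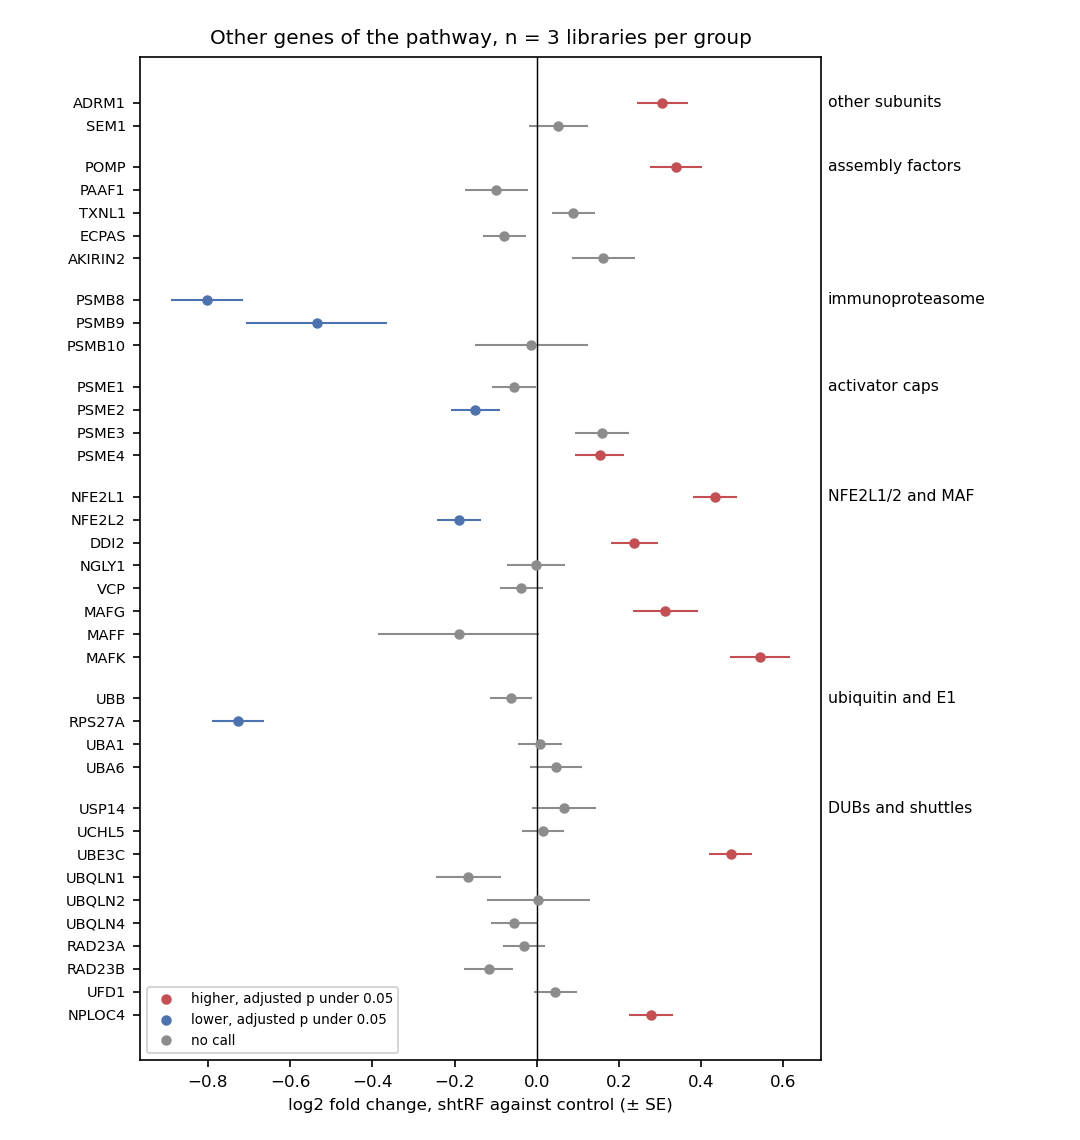
Log2 fold change of 36 other genes of the pathway (x axis, shtRF against control, with its SE, n = 3 libraries per group), ordered by role and coloured by call. PSMB8 at -0.80 and RPS27A at -0.73 lie lowest, and MAFK at 0.54, UBE3C at 0.47 and NFE2L1 at 0.43 lie highest.

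Of the transcription factors that act on proteasome genes, and the enzymes that process them, 4 of 8 rose (NFE2L1, DDI2, MAFG and MAFK) and 1 fell (NFE2L2). Of all genes tested, 20.6% were higher and 18.9% lower. NGLY1 (log2 fold change -0.0017, adjusted p = 0.989), VCP (-0.04, adjusted p = 0.608) and MAFF (-0.19, adjusted p = 0.484) did not pass the test. NFE2L1 (chromosome 17, 48048329 to 48061487) had 469, 441 and 451 CPM in control and 588, 625 and 624 CPM in shtRF, a log2 fold change of 0.43 ± 0.05 (adjusted p = 9.88e-07). DDI2, the protease that activates its protein, rose by 0.24 (15.3% of its exonic bases lie in RSC1A1), and the partner MAFK rose by 0.54 (adjusted p = 2.96e-06), with 18.1% of its exonic bases in TMEM184A. These mRNA values do not measure the activity of NFE2L1, whose protein is regulated by its own degradation. NFE2L2, a related factor best known for antioxidant genes, fell by 0.19, with 20.9% of its exonic bases in other genes, and MAFG rose by 0.31. Of the ubiquitin and activating enzyme genes reported here, 1 of 4 fell and 0 rose. RPS27A, which encodes ubiquitin fused to a ribosomal protein, had 60.4, 60.8 and 68.7 CPM in control and 39.9, 35.5 and 39.4 CPM in shtRF (log2 fold change -0.73 ± 0.06, adjusted p = 6.89e-09). The polyubiquitin gene UBB had a log2 fold change of -0.06 (adjusted p = 0.373), with 28.4% of its exonic bases in RP11-138I1.4 on the opposite strand, at 315 CPM in control. Of 10 shuttle factors, deubiquitinases and related enzymes, UBE3C, a ubiquitin ligase that works at the proteasome, rose by 0.47 and NPLOC4, a cofactor of the unfolding enzyme VCP, rose by 0.28. The other 8 did not pass the test.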

How the data were processed

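mRNA was sequenced in 6 libraries of MDA-MB-453 cells, 3 control and 3 shtRF, grouped by their titles. Per the labels, stranded paired-end libraries were run on an Illumina NovaSeq instrument. The authors deposited raw read counts per gene with exon coordinates. The submitters' processing notes name Trimmomatic 0.36, featureCounts of Subread 1.5.1, edgeR 3.12.1 and GRCh38; the aligner and the strand setting of the counting are not given in the sources used here. Reads in exons shared by several genes seemed to count for each of them on either strand, so members with 10% or more of shared exonic bases are pointed out. The authors also deposited RPKM values, of which a partial table was read. In it, 100% of the values of 4991 genes, 8 members among them, equalled the count divided by exonic length and library total (relative tolerance 0.0001), so RPKM was recomputed from the counts.

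Genes were filtered with filterByExpr (minimum count 10), scaled with TMM and tested with edgeR 4.0.16 (R 4.3.3; glmQLFit and glmQLFTest, two-sided) with group as the only term. Benjamini-Hochberg adjustment ran over 19628 genes, with a threshold of 0.05. SEs came from the estimate and its F statistic. The coefficient of variation between replicates was 7.56%. The tests were first tested on simulated data. Chi-square per degree of freedom between replicates was 6.31 to 19.4, more than sampling noise in every pair. Each library was counted as 1 replicate, although this spread may be technical and cannot show that the replicates were independent.

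The members and lists were chosen with earlier results of these data known, and lists are described by counts and medians, with no test. All members are named. Values per library were to be given, in each class, for the called member with the largest log2 fold change in size, for the member with the smallest, and for called members of at least 0.3; of the pathway lists ADRM1, SEM1, POMP, NFE2L1, PSMB8 to PSMB10, PSME1 to PSME4 and called genes of at least 0.5 were to be named. Values of the other called members and of PSMB6, and the names of further pathway genes, were added after their values were seen. Exon overlap and principal transcripts were taken from the deposited exons and GENCODE 29. Alternatives were RLE and upper quartile scaling, 2 other count filters, DESeq2 1.42.0, counts halved (since both mates of a pair may have been counted), a replicate block, each library left out, and members with shared exons left out. A few genes of the pathway and marker lists are not reported here and were left out of the lists after the tests had been run, so nothing is read from the counts over the pathway lists.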

Additional observations from a re-analysis of the deposited data

How the results depend on the processing

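Of the 14 calls, PSMA2, PSMA3, PSMB3, PSMB5, PSMB7, PSMC1, PSMC2, PSMC5 and PSMD4 held in each of 13 alternatives. Over the 39 members and 13 alternatives, 463 of 507 values kept direction and call, 15 lost a call, 11 gained one and 18 turned sign; over the pathway genes these were 424 of 468, 17, 6 and 21. With members that share exons left out, 3 members and 3 regulatory genes were higher, since fewer genes were counted. Leaving out single libraries gave 0 to 1 higher core genes (1, PSMB6, without control replicate 2), 0 to 1 lower regulatory genes (0 without shtRF replicate 3), 4 to 8 higher and 6 to 9 lower members, 6 to 8 lower core genes, 4 to 6 higher regulatory genes, 3 to 6 lower pathway genes (3 without shtRF replicate 3) a regulatory median of 0.058 to 0.13 and a difference of medians of -0.29 to -0.22. Same-numbered replicates did not deviate together (correlations of 0.017, -0.0044 and 0.0039 for replicates 1 to 3), so the numbers were not read as pairs. With the replicate block, 7 members were higher and 9 lower, PSMB1, PSMD9 and PSME3 gained a call (adjusted p = 0.0442, 0.0274 and 0.0337), and no member lost one. Signs turned for genes near 0, none of which was called: under upper quartile scaling, which moved the median of all genes by -0.036, PSMA7 (-0.018), PSMC4 (-0.033), PSMD11 (-0.014), UBA1 (-0.028), UCHL5 (-0.021) and UBQLN2 (-0.031); under RLE, PSMC4 (-1.2e-05); with no filter, PSMC4 (-0.0028) and UBQLN2 (-0.0028); with at least 10 counts in every library, PSMC4 (-0.010), UBA1 (-0.0058) and UBQLN2 (-0.0095); with halved counts, PSMC4 (-0.0080), UBA1 (-0.0040) and UBQLN2 (-0.0052); and with the block, NGLY1 (0.0026). When single libraries were left out, signs turned within the ranges of PSMA7 (-0.045 to 0.10), PSMC4 (-0.057 to 0.047), PSMD11 (-0.021 to 0.097), PSMG1 (-0.094 to 0.038), PSMG2 (-0.062 to 0.045), SEM1 (-0.061 to 0.13), PSMB10 (-0.13 to 0.11), NGLY1 (-0.089 to 0.042), UBA1 (-0.012 to 0.034), UBA6 (-0.0065 to 0.10), UCHL5 (-0.014 to 0.035) and UBQLN2 (-0.13 to 0.094). The cause of these changes was not tested. The depth, counted in reads without molecular identifiers, limits mainly genes with few counts, and among the members SEs were widest for PSMA1 and PSMB2.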
